A study of Mus musculus with 22 samples.

Results

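The cytosolic chaperonin, called TRiC or CCT, is built from 8 related subunits, each the product of its own gene: Tcp1 (the alpha subunit), Cct2 (beta), Cct3 (gamma), Cct4 (delta), Cct5 (epsilon), Cct6a (zeta), Cct7 (eta) and Cct8 (theta). The members were chosen by these 8 symbols, and all 8 were found among the 12596 genes of the deposited table. RNA was sequenced from 11 mice on a C57Bl/6 background that all carried the Th-cre transgene and the Slc6a2-eGFP/Rpl10a transgene. The second transgene labels a ribosomal protein with eGFP under control of the noradrenaline transporter gene Slc6a2, so that ribosomes of noradrenergic cells can be pulled down with the mRNA they carry. Each mouse gave 2 libraries, one of the immunoprecipitated RNA (IP, labelled noradrenergic) and one of total RNA taken ahead of the pull-down (input, labelled total hindbrain). The labels name a mouse's libraries with 1 number, as in IP_505 and Pre_505, where Pre is the input. Of the mice, 5 received hTyr, human tyrosinase, an enzyme of pigment synthesis, and 6 received the yellow fluorescent protein EYFP. The groups are therefore hTyr IP and hTyr input with 5 libraries each, and EYFP IP and EYFP input with 6 each. Age and time after infusion are not given in the sources used here.

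TRiC is a barrel of stacked rings that encloses newly made proteins and folds them with energy from ATP, and each ring holds 1 copy of every subunit in a fixed order. Actin and tubulin depend on it, as do several proteins with propeller folds such as the beta subunits of G proteins. Prefoldin hands it unfolded chains, and phosducin-like proteins assist it. Neurons with long axons make much tubulin. Since a ring takes 1 copy of each subunit, the levels of the 8 mRNAs across libraries are of interest together.

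In these data the mRNAs of all 8 subunits were higher in IP than in input, in both treatments and in every animal. Among IP libraries the subunits moved together, whereas among input libraries they did so far less, with Tcp1 and Cct7 moving in opposite directions. No subunit differed between hTyr and EYFP beyond the spread between animals.

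The 8 genes lie on 8 different chromosomes, so none shares a promoter with another subunit. In the mm10 assembly and the GENCODE M21 annotation Tcp1 spans chr17:12915701-12925067 on the plus strand, Cct2 chr10:117051001-117063814 on the minus strand, Cct3 chr3:88297116-88321767 (plus), Cct4 chr11:22990519-23003780 (plus), Cct5 chr15:31590800-31601804 (minus), Cct6a chr5:129786998-129846371 (plus), Cct7 chr6:85451514-85468475 (plus) and Cct8 chr16:87483326-87495873 (minus). A RefSeq promoter window (GRCm38.p6) was matched for 7 of the 8, Cct4 being the one not matched. The last 120 bases before the RefSeq start are shown for 5 of them, because genes whose mRNAs move together may be compared at their promoters. They are Cct8 and Cct3, with the largest gains in IP among the 7 with a window, Cct2, which gained little, Cct7, which ran against Tcp1 in input, and Cct5, the most abundant. Capitals mark matches, on either strand, to the motifs described after the sequences.
Cct8 (chr16:87495870-87495989, minus strand): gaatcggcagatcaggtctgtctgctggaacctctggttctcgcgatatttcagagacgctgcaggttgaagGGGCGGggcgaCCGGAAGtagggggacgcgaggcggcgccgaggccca
Cct3 (chr3:88297015-88297134, plus strand): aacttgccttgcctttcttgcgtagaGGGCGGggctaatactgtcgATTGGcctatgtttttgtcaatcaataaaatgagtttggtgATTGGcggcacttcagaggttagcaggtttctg
Cct2 (chr10:117063853-117063972, minus strand): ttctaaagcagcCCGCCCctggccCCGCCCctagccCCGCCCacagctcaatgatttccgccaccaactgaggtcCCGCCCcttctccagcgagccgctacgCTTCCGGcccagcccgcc
Cct7 (chr6:85451385-85451504, plus strand): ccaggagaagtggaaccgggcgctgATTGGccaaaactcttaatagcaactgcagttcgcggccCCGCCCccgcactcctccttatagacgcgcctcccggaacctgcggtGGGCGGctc
Cct5 (chr15:31601847-31601966, minus strand): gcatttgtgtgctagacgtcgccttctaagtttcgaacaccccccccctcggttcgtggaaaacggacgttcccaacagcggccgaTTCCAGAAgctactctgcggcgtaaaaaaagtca

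Motifs were searched on both strands in the 250 bases before each start. The GC box GGGCGG, the core bound by Sp family factors, was present in 7 of 7 subunit promoters, against 32.9% of all 27025 promoters of the table of promoters and 60.6% of those of measured genes. The CCAAT box (letters CCAAT, bound by NF-Y) was present in 4 of 7, namely Tcp1, Cct3, Cct6a and Cct7, against 34.5% of all promoters and 36.1% of those of measured genes. The ETS core CCGGAAG was found in Cct2 and Cct8, against 7.05% and 13.4%. Of the short inverted repeats of the heat shock element, TTCNNGAA was found in Cct5 only (7.10% of all promoters and 5.44% of those of measured genes) and GAANNTTC in none of the 7 (6.78% and 4.68%). The NRF1 motif TGCGCA was in Cct3 and Cct6a (6.66% and 12.1%), and the cyclic AMP response element TGACGT in Cct6a (6.56% and 10.6%). The antioxidant response element core TGACNNNGC was in Tcp1 and Cct6a (10.1% and 12%), and the E-box CACGTG in none of the 7 (6.05% and 8.63%). In Cct6a the TGACGT and TGACNNNGC matches overlap. A match is only a run of letters and says nothing of whether a factor binds there. The windows of Tcp1 and Cct6a are not shown, since they lie wholly inside the span that GENCODE gives those genes. Those of Cct3 and Cct8 reach into the first bases of theirs. All 7 windows enter the counts above.

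The subunit mRNAs were abundant. In EYFP input their mean levels ranked from 1020 (Cct7) to 2379 (Cct4) among the 12596 genes, and in EYFP IP from 522 (Cct5) to 1199 (Cct4). Each subunit had between 1388 and 6936 reads in every library. Counting error alone, from these reads, came to between 0.020 and 0.034 log2 units in the 32 combinations of gene and group, a median of 19.2% of the SD between animals. It was above 50% of the SD in 2 of them, Cct2 in hTyr IP (60.4%) and Cct5 in EYFP input (55.2%). Of the reads on the 12596 genes, the 8 together took 0.104% to 0.126% in an input library and 0.158% to 0.229% in an IP library.

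Levels per length of transcript are given in CPM per kilobase, on the linear scale. CPM are reads scaled to a library size near, but not equal to, the library's total. By this measure Cct5 was the most abundant and Cct4 the least in all 4 groups. In EYFP input Cct5 stood at 97.5 ± 3.01 and Cct4 at 38.1 ± 2.53 CPM per kilobase (SD, n = 6), a ratio of 2.56. The ratio of their means was 2.75 in hTyr input, 2.38 in EYFP IP and 2.21 in hTyr IP. By these values, with no trend on length or GC content removed, the ratio was somewhat smaller in IP. In EYFP input the order was Cct5, Cct2, Cct7, Tcp1, Cct8, Cct3, Cct6a and Cct4. Cct7 and Tcp1 were not separated there (Cct7 above Tcp1 in 3 of 6 libraries), nor were Cct3 and Cct6a (3 of 6), while each other neighbour was above the next in 6 of 6 libraries.

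Cct8 had rank 5 in both input groups and rank 2 in both IP groups. In EYFP IP it stood at 131 ± 24.5 CPM per kilobase, beside 125 ± 14.3 for Cct7 and 123 ± 12.5 for Cct2 (SD, n = 6). It was above Cct7 in 3 of 6 EYFP IP libraries and above Cct2, its neighbour in hTyr IP, in 5 of 5. These levels per length rest on 1 transcript for each gene, and a different choice of transcript would shift a gene in all groups alike. GENCODE M21 types the Cct6a entry used here as a processed transcript, and those of the other subunits as protein coding. The span and length of Cct6a, and so its place in the order, rest on that entry.

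Against input, the log2 CPM of every subunit was higher in IP. Cct8, the theta subunit, had the largest difference. Its EYFP input libraries ran from 6.90 to 7.29 with a median of 7.10, and its EYFP IP libraries from 7.78 to 8.61 with a median of 8.36. The hTyr animals had 6.71, 6.99, 6.98, 7.03 and 7.24 in input and 8.38, 8.33, 8.17, 8.49 and 8.42 in IP. The lowest IP library thus lay above the highest input library in both treatments. The change was 1.19 (SE 0.11, adjusted p = 1.04e-06) in EYFP and 1.37 (SE 0.10, adjusted p = 1.71e-08) in hTyr, or 2.29-fold and 2.58-fold.

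**Figure D1:**
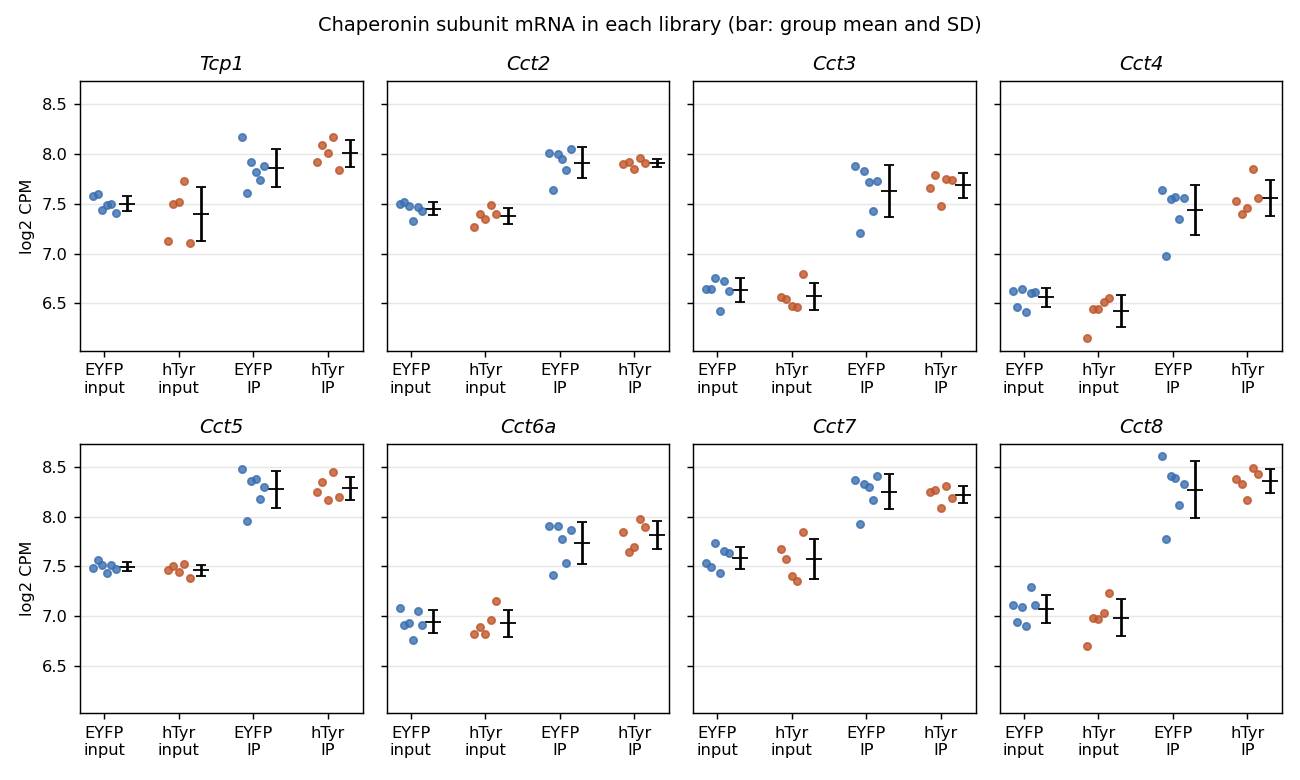
Level of each subunit mRNA (log2 CPM, vertical axis) in every library of the 4 groups, with EYFP in blue and hTyr in orange; the bar beside the points is the group mean with its SD. For each of the 8 genes both IP groups lie above the input group of the same treatment, while hTyr and EYFP overlap.

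Tcp1, the alpha subunit that gave the complex its name, had the smallest difference in EYFP animals. Its EYFP input libraries ran from 7.41 to 7.60 with a median of 7.49, and its EYFP IP libraries from 7.60 to 8.17 with a median of 7.85. The groups came close, since the lowest IP library, IP_505, was at almost the level of the highest input library. In hTyr animals Tcp1 had 7.12, 7.50, 7.52, 7.73 and 7.11 in input against 7.92, 8.09, 8.01, 8.17 and 7.83 in IP. The change was 0.35 (SE 0.08, adjusted p = 0.00152) in EYFP and 0.61 (SE 0.11, adjusted p = 0.000249) in hTyr.

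The other subunits fell between these in EYFP animals, whereas in hTyr animals Cct2 had a smaller change than Tcp1. In EYFP animals the log2 change was 0.46 for Cct2, 0.67 for Cct7, 0.78 for Cct5, 0.79 for Cct6a, 0.88 for Cct4 and 1.00 for Cct3, with SE between 0.07 and 0.10. In hTyr animals it was 0.53 for Cct2, 0.65 for Cct7, 0.82 for Cct5, 0.88 for Cct6a, 1.11 for Cct3 and 1.14 for Cct4. Thus 8 of 8 subunits passed the threshold (adjusted p under 0.05) as higher in IP in each treatment. The background is wide, since 56.5% of all genes were called in EYFP animals and 28.5% were called higher, and in hTyr animals 54.4% were called and 27.4% were called higher. The median change of the 8 was 0.78 in EYFP and 0.85 in hTyr, beside -0.03 and -0.04 over all genes. For all 8 the IP and input libraries did not overlap, in either treatment, as was so for 16.7% of all genes in EYFP and 20.7% in hTyr with IP higher. The 2 comparisons use different animals and share no library.

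The IP was enriched for noradrenergic cells but still held RNA of other cells, and fewer cells of a type cannot be told apart from less RNA per cell in these bulk samples. All 10 noradrenergic marker genes were higher in IP, with a median change of 1.95 in EYFP and 2.64 in hTyr. Of 10 markers of other neurons, 8 were higher in EYFP and 7 in hTyr, with medians of 0.48 and 0.57. Oligodendrocyte markers averaged 8.72 log2 CPM in EYFP IP and 8.83 in EYFP input, with 1 of 8 higher and 4 of 8 lower, and 8.76 in hTyr IP and 8.94 in hTyr input, with 2 of 8 higher and 4 lower. Of 7 astrocyte markers 3 were higher and 1 lower in EYFP, and 4 higher and 1 lower in hTyr. Of 8 microglial markers 1 was higher and 1 lower in each treatment. Of the 4 measured endothelial markers 0 were called in EYFP, also at an unadjusted p under 0.05, and 2 were higher in hTyr. The part of these cell types in the subunits' difference was not tested.

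Because IP and input come from the same animal, the difference can also be read animal by animal. Each of the 8 genes was higher in IP in 11 of 11 animals. The mean of the differences was 1.27 ± 0.27 log2 units for Cct8, 1.05 ± 0.24 for Cct3, 1.00 ± 0.25 for Cct4, 0.83 ± 0.20 for Cct6a, 0.80 ± 0.16 for Cct5, 0.66 ± 0.19 for Cct7, 0.49 ± 0.14 for Cct2 and 0.47 ± 0.22 for Tcp1 (SD, n = 11). The top of this order was steady, with Cct8 above Cct3 in 11 of 11 animals, by 0.22 ± 0.13. Cct3 and Cct4 could not be ordered (Cct3 higher in 6 of 11), nor could Cct6a and Cct5 (7 of 11) or Cct2 and Tcp1 (7 of 11). Cct8 gained 0.80 ± 0.19 more than Tcp1, and did so in 11 of 11 animals.

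**Figure D2:**
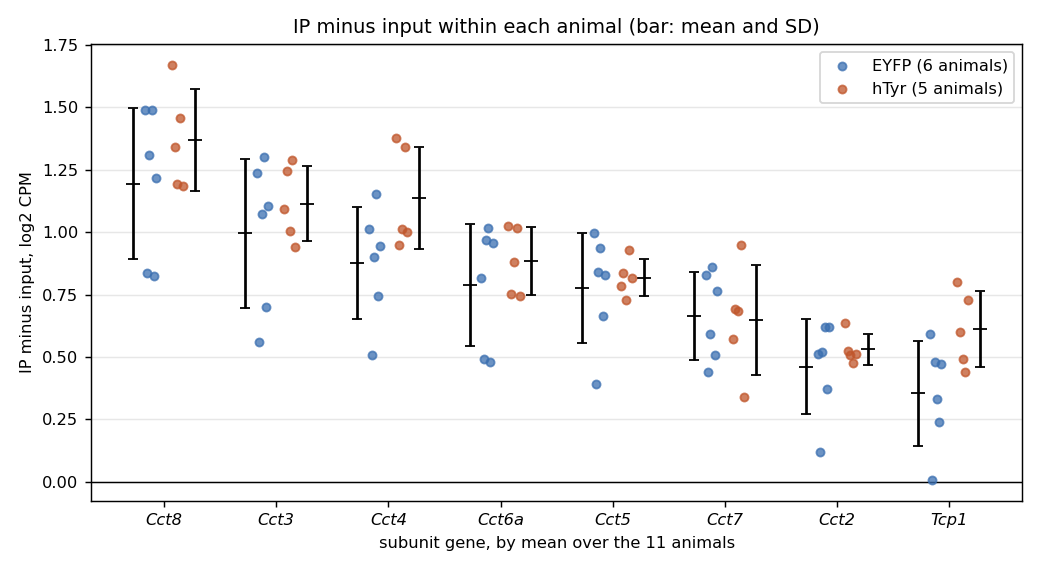
Difference between IP and input of the same animal (log2 CPM, vertical axis) for each subunit, ordered by its mean over the 11 animals, with EYFP animals in blue, hTyr animals in orange and bars for the mean and SD. Every point lies above 0, from 0.0075 for Tcp1 (IP_505 minus Pre_505) to 1.67 for Cct8 (IP_501 minus Pre_501).

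Over all genes GC content moved with the IP difference, while transcript length hardly did. Spearman's rho across genes was -0.39 for GC content and 0.08 for length (12380 genes, which are not independent replicates). The GC content of the subunit transcripts ran from 43.3% in Cct8 to 54.0% in Cct7. With each library's trend on length and GC removed, 8 of 8 subunits remained higher in IP in both treatments. Cct8 then stood at 0.99 in EYFP and 1.06 in hTyr, Cct3 at 0.96 and 1.06, and Tcp1 at 0.27 and 0.48. The distance between Cct8 and Cct3 was thus almost gone, while both stayed above Tcp1. Cct4 no longer gained more than Cct5 in EYFP (0.73 against 0.76), while it still did in hTyr (0.90 against 0.79).

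Levels within groups were then compared library by library, which addresses whether the subunits vary in step. The measure is Pearson's r between a pair of subunits over the libraries, after the mean of each group is taken away, and there are 28 pairs. Over the 11 IP libraries all 28 pairs were positive, from 0.59 (Tcp1 with Cct6a) to 0.97 (Cct2 with Cct7), with a median of 0.88 (Spearman's rho 0.81). In 21 of the 28 pairs r was above 0.8. Over all 79323310 pairs of genes in the table the median r was -0.00125, and 0.225% of pairs exceeded the median of the subunits. Many other genes followed a subunit as closely as its fellow subunits did. With all genes ranked by r to a subunit, the other 7 had a median rank between 39 (for Cct7) and 622 (for Tcp1). Between 1 (for Tcp1) and 5 (for Cct7) of the 7 were in the top 1% of genes. The libraries of a pair share their depth, their animal and their cell mixture, so these r values are descriptions.

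The co-variation rested in part on a single library. In the EYFP IP library IP_505 all 8 subunits were the lowest of their group, by 0.25 (Tcp1) to 0.49 (Cct8) below the group mean on the log2 scale, where 24.6% of all genes were lowest. In the input library of that animal, Pre_505, the subunits were near the group mean, 0.01 below it on average. Without IP_505 the median r over IP libraries was 0.73. Without the 2 IP libraries farthest from the median, IP_504 and IP_505, it was also 0.73, all 28 pairs were still positive and the lowest, Tcp1 with Cct6a, was 0.24. Wherever the 2 farthest libraries were left out, deviations were still from the means of the full groups, which can add to r.

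Several other IP libraries, though not all, showed the same concerted shifts on a smaller scale. In IP_511 all 8 subunits were under the group mean, by 0.07 to 0.20. In IP_504, IP_506 and IP_512 all 8 were above it, in IP_504 by 0.10 (Cct2) to 0.34 (Cct8). Among hTyr animals, all 8 were above the mean in IP_509, by 0.05 to 0.30, and 7 of the 8 were the highest of the group there, where 22% of all genes were. In IP_508, 7 of the 8 were under the mean. The remaining hTyr IP libraries showed no common shift, with 5 of 8 under the mean in IP_501, 3 in IP_502 and 4 in IP_510. The deviations of the 8 spanned 0.12, 0.28 and 0.25 there, beside a median of 0.21 over the IP libraries.

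**Figure D3:**
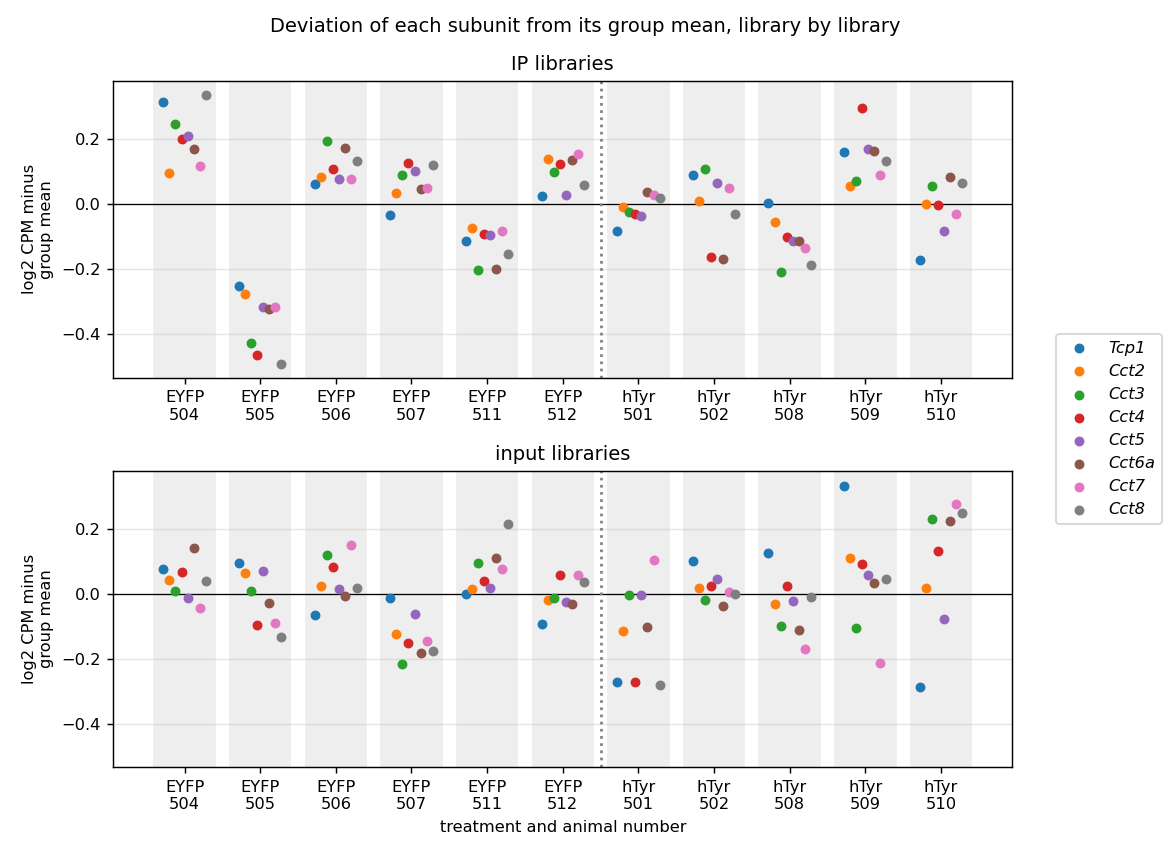
Level of each subunit minus its group mean (log2 CPM, vertical axis) in the IP libraries (upper) and input libraries (lower), with 1 column for each animal and 1 colour for each gene. In IP the 8 points of a column tend to shift together, as in IP_505 and IP_504. The points of a column span a median of 0.21 in IP and 0.22 in input, and the widest columns are 3 of hTyr input: in Pre_501, Pre_509 and Pre_510 Tcp1 (dark blue) and Cct7 (pink) lie at opposite ends or far apart.

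Taking away the mean of the subunits lowered their spread in IP more than in input, from a larger start to a similar remainder. Each subunit is part of that mean, so some lowering is built in. The SD within groups of a subunit had a median of 0.17 over the 8 genes in IP (0.20 over all genes), and 0.08 after the mean of the 8 subunits in that library was taken away. Cct5 was left with the smallest remainder, 0.05, and Tcp1 with the largest, 0.10. In input the SD had a median of 0.13 (0.15 over all genes) before and 0.09 after. For Tcp1 and Cct5 the removal did not lower it in input, with 0.19 both before and after for Tcp1, and 0.05 before and 0.08 after for Cct5.

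Over the 11 input libraries the subunits were far less alike. The median r was 0.41 (rho 0.36), 19 of the 28 pairs were positive and 9 negative, and 3 pairs were above 0.8. Of all pairs of genes 18.5% exceeded that median. Without the 2 input libraries farthest from the median, Pre_507 (EYFP) and Pre_501 (hTyr), the median r was 0.11. The difference in r between IP and input was not tested.

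Some pairs stayed close in input. Cct4 with Cct8 had an r of 0.88, Cct3 with Cct7 0.87, Cct6a with Cct8 0.81 and Cct3 with Cct6a 0.77. Tcp1 and Cct5 were the subunits least like the others, with median r of 0.02 and -0.09 to the other 7, although they were alike to each other (0.63). In IP the median r of Tcp1 to the other 7 was 0.72, the lowest of the 8 genes there, and that of Cct8 was 0.91, the highest.

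**Figure D4:**
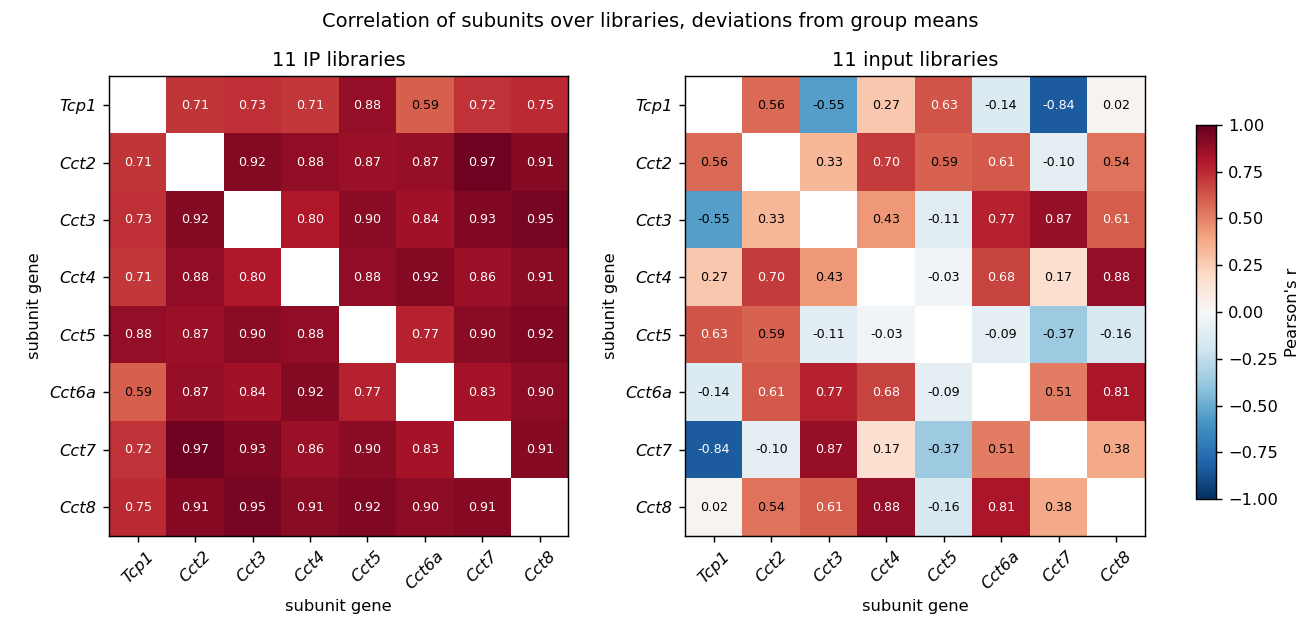
Pearson's r between each pair of subunits over the 11 IP libraries (left) and the 11 input libraries (right), computed on deviations from group means, from blue at -1 to red at 1. All pairs are red in IP, while in input Tcp1 with Cct7 is at -0.84 and 9 of the 28 pairs are under 0.

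Tcp1 and Cct7 gave the most negative pair of the input libraries, at -0.84 (rho -0.83). The hTyr animals show it plainly. Tcp1 was low in Pre_501 and Pre_510 (7.12 and 7.11) and high in Pre_509 (7.73). Cct7 ran the other way, with 7.67 in Pre_501, 7.85 in Pre_510 and 7.36 in Pre_509. The difference Tcp1 minus Cct7, on log2 CPM, thus ran from -0.74 to 0.37 in hTyr input, with an SD of 0.46. In EYFP input it ran from -0.30 to 0.10, with an SD of 0.17, and in IP the SD was 0.12 in both treatments.

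The opposition of Tcp1 and Cct7 was the same with length and GC trends removed (r = -0.83). The measured RNA of Tcp1 has a neighbour that runs into it: Acat3, on the other strand of chromosome 17, overlaps Tcp1 by 1255 bases at its end. The strand setting of the read counting is not given in the sources used here, so reads from the overlap cannot be assigned to either gene with certainty. Acat3, an enzyme gene of ketone and sterol metabolism, had an r of -0.75 with Tcp1 over the input libraries and 0.32 over the IP libraries. Whether the overlap plays a part was not tested.

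Cct8 overlaps Usp16 on the other strand by 192 bases, with r of 0.37 in input and -0.14 in IP. Genes on the other strand that start near the start of a subunit did not follow its difference between IP and input. Mrpl18, Psph and Pradc1 start inside the GENCODE spans of Tcp1, Cct6a and Cct7, so they overlap these subunits too. Their r with the subunit over IP and input libraries was -0.37 and 0.02 (Mrpl18), 0.51 and 0.13 (Psph) and -0.18 and 0.32 (Pradc1). Whether these overlaps play a part was not tested. Mrpl18 was lower in IP (-0.31 in EYFP and -0.43 in hTyr), as was Fam173b beside Cct5 (-0.37 and -0.53). Psph (0.13 and -0.01) and Pradc1 (-0.10 and -0.33) did not pass the threshold. Processed pseudogenes share stretches of 31 bases with 5 of the subunits, namely Cct3 (3 pseudogenes), Cct7 (5), Cct2, Cct4 and Tcp1 (1 each). The share is largest for Cct3, at 13.1% of its stretches, so reads of Cct3 could have been split or dropped. No such pseudogene is in the table, and Cct5, Cct6a and Cct8 share none. Tcp1 shares stretches with 324 other genes in all. The largest share after the 1.66% of its pseudogene is that of Rnd1, a measured gene, at 0.455%.

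Levels in IP and in input of the same animal were hardly tied to each other. The r over the 11 animals was 0.09 for the mean of the 8 subunits, and for single subunits it ran from -0.15 (Cct5) to 0.46 (Tcp1), with a median of 0.14 beside 0.27 over all genes. The shift common to the subunits in an IP library was not seen to the same degree in its input library.

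The mean of the 8 subunits was set beside the cell type markers in the same libraries. Over the 11 IP libraries its r with the mean of 10 markers of other neurons was 0.81, and 0.67 without IP_505. With the noradrenergic markers it was 0.36, with astrocyte markers 0.68, with oligodendrocyte markers 0.23, with microglial markers 0.17 and with endothelial markers -0.12. Without IP_505 the r with oligodendrocyte markers was -0.11 and that with astrocyte markers 0.54. The r was also taken without the 2 IP libraries farthest from the median of the markers in question. It was then 0.85 for other neurons, 0.33 for noradrenergic, 0.30 for astrocyte, 0.47 for oligodendrocyte, 0.06 for microglial and -0.28 for endothelial markers. Where libraries were left out, deviations were still from the means of the full groups. With log2 read depth the r over the 11 IP libraries was 0.01. IP_505 had the lowest mean of markers of other neurons among the IP libraries, 6.09, where the range was 6.09 to 6.59. In input the r with markers of other neurons was 0.62 (0.33 without the 2 libraries farthest from the median of these markers) and all others lay between -0.23 and 0.26. The part of cell mixture in the co-variation was not tested.

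The likeness of subunits to each other can be set beside other complexes and beside TRiC's partners, by the same median r over IP libraries. It was 0.59 for 31 proteasome core subunits (465 pairs), 0.60 for 14 tubulins, 0.44 for the 6 prefoldin subunits, 0.27 for 15 genes of the Hsp70 and Hsp90 machinery and 0.36 for 4 G protein beta subunits. Over input libraries it was 0.55 for the proteasome and 0.58 for tubulins, both close to their IP values, and 0.13 for prefoldin. Sets of different size and level are not strictly comparable in this way, and the differences were not tested.

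The genes most like the mean of the subunits were picked by r over all 22 libraries on deviations from group means. The 5 nearest that are not subunits were Rragb (r = 0.93), a small GTPase of lysosomal nutrient sensing, Jak1 (0.93), a cytokine receptor kinase, Gucy1b3 (0.93), a subunit of the nitric oxide receptor guanylate cyclase, Uba2 (0.93), of the SUMO-activating enzyme, and Dcaf12l1 (0.92). Each of the 5 had an r of 0.94 to 0.97 in IP and of 0.86 to 0.94 in input. The same libraries served to pick the 5 from all genes, so high values are built in. Without IP_505 and Pre_505, on the same deviations, the r ran from 0.88 to 0.92. Each of the 5 was higher in IP than in input in both treatments, by 0.67 to 1.54. Of all genes, 28.5% were called higher in EYFP and 27.4% in hTyr. Among all genes Cct8 itself ranked 1, Cct4 ranked 8, Cct2 ranked 18, Cct3 ranked 34, Cct6a ranked 40, Cct5 ranked 89, Cct7 ranked 612 and Tcp1 ranked 1701. The subunits enter the mean that they are compared with, which raises their ranks.

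TRiC's helpers did not follow it as a group. Of 6 prefoldin subunits 2 were higher and 1 lower in IP in EYFP animals, and 1 higher and 1 lower in hTyr animals. Over all genes 28.5% were called higher in EYFP and 27.4% in hTyr, so the prefoldin counts are near the background. The same shares are the background for the lists that follow. Vbp1 was higher (0.46 in EYFP, adjusted p = 8.66e-05, and 0.64 in hTyr), Pfdn2 was lower (-0.37 and -0.64) and Pfdn1 was higher in EYFP (0.19). Of the 2 measured phosducin-like genes Pdcl, which helps the beta subunits of G proteins to assemble, was higher (0.67 and 0.65) and Pdcl3 was lower (-0.45 and -0.56). Median changes of the 6 prefoldin genes were 0.08 and -0.09, against 0.78 and 0.85 for TRiC itself.

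Among relatives of the chaperonin, the mitochondrial chaperonin Hspd1 was higher by 0.98 in EYFP (adjusted p = 1.16e-06) and 1.14 in hTyr, within the range of the TRiC subunits. Its partner Hspe1, which caps the Hspd1 barrel and is named after its values were seen, had changes of 0.11 and 0.18 that did not pass the threshold. Bbs12 (0.68 and 0.72) and Bbs10 (0.66 and 0.72), which belong to the chaperonin-like group that assembles the BBSome, were higher, while Mkks of the same group was lower in EYFP (-0.21). In all, 3 of 5 measured relatives were higher in EYFP and 3 of 5 in hTyr.

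Client genes of TRiC were mostly higher in IP. Of 14 tubulins 11 were higher and 1 lower in EYFP and 10 higher and 1 lower in hTyr, with medians of 0.55 and 0.61. In EYFP the largest were Tubb2a (1.04), Tubb4b (0.93), Tubb3 (0.92) and Tubb2b (0.91), the last 3 of which stood at 0.99, 0.90 and 0.94 in hTyr. Tubb3 is the beta tubulin typical of neurons. Both cytoplasmic actins were higher, Actg1 by 0.36 and 0.38 and Actb by 0.32 and 0.36. Among 4 measured G protein beta subunits Gnb4 (0.38 and 0.37) and Gnb2 (0.34 and 0.29) were higher in both treatments, Gnb5 in EYFP only by the threshold (0.21), and Gnb1 was lower (-0.33 and -0.31). Of 5 tubulin cofactors, which act on tubulin after TRiC, Tbcc (0.45) and Tbcb (0.18) were higher in EYFP and none passed in hTyr.

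Other protein-quality machines were also higher. Of 15 genes of the Hsp70 and Hsp90 machinery 11 were higher and 1 lower in EYFP and 10 higher and 1 lower in hTyr, with medians of 0.81 and 0.69. Hsp90aa1 led with 1.74 and 2.08, followed by Hspa4l (1.42 and 1.86), Hspa4 (1.25 and 1.54), the latter pair being nucleotide exchange factors of Hsp70. Hsf1, the main heat shock transcription factor, was the one lower (-0.34 and -0.53) and is named after its values were seen. Of 31 proteasome core subunits 27 were higher and 1 lower in EYFP and 26 higher and 1 lower in hTyr, with medians of 0.58 and 0.53, led in EYFP by Psmc6 (1.08) and Psma4 (1.06).

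hTyr against EYFP in IP asks whether tyrosinase changed the subunits in the ribosome-bound RNA. Cct8 had 8.38, 8.33, 8.17, 8.49 and 8.42 log2 CPM in hTyr IP and 7.78 to 8.61 in EYFP IP. The hTyr libraries all lay inside the EYFP range. The log2 change was 0.08 (SE 0.12, 95% interval -0.17 to 0.34, adjusted p = 0.934). Tcp1 had the largest change of the 8, 0.15 (SE 0.10, interval -0.05 to 0.36, adjusted p = 0.852), and Cct4 followed with 0.12 (interval -0.13 to 0.36). The lowest was Cct7 with -0.03 (interval -0.22 to 0.16). None of the 8 passed the threshold in limma, 0 of 8 had an unadjusted p under 0.05, and voom on recovered reads called 0 of 8.

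The background of that comparison is low, at 0.0556% of genes called (7 of 12596), so that few calls could be looked for. The 95% intervals of the 8 reach no higher than 0.36 and no lower than -0.22 on the log2 scale. The median change was 0.07 beside -0.01 over all genes. The small positive values depended on IP_505: without it the median was -0.02, Cct8 stood at -0.01, Cct4 at 0.03 and Tcp1 at 0.10. For 0 of 8 subunits did hTyr and EYFP IP libraries separate, where 0.389% of all genes did with hTyr higher.

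**Figure D5:**
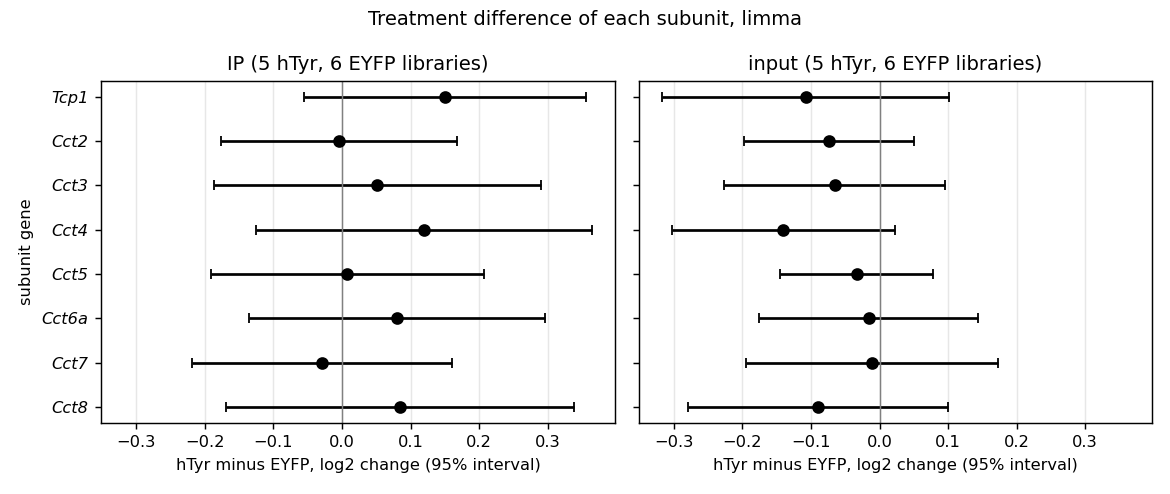
Difference between hTyr and EYFP (log2 change, horizontal axis) for each subunit in IP (left) and input (right), as limma estimates with 95% intervals. All 16 intervals include 0; the values run from -0.03 to 0.15 in IP and from -0.14 to -0.01 in input.

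In input the 8 changes were all slightly negative and none passed, with 0 of 8 at an unadjusted p under 0.05. Cct4 had 6.15, 6.44, 6.44, 6.51 and 6.55 in hTyr input and 6.41 to 6.64 in EYFP input, with a median of 6.61. The groups overlapped, and Pre_501 was the only hTyr library below all EYFP libraries. Its log2 change was -0.14 (SE 0.08, interval -0.30 to 0.02, adjusted p = 0.990). Tcp1 followed with -0.11 (interval -0.32 to 0.10) and Cct7 was at -0.01 (interval -0.20 to 0.17). The background was 0.00794% of genes called, a single gene, Slc6a2 (-0.91), named here after its value was seen. Voom on recovered reads called 0 of 8.

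The interaction asks whether the hTyr effect differed between IP and input, and equally whether the gain in IP differed between treatments. The largest values were those of Cct4 and Tcp1, both 0.26 (SE 0.14), and the smallest was that of Cct7 (-0.02). None of the 8 passed (adjusted p = 0.996 to 0.997, 0 of 8 at an unadjusted p under 0.05), against a background of 0.00794%, again 1 gene, Sdf2l1 (1.58), named after its value was seen. Animal by animal, the gain of Tcp1 in IP was 0.35 ± 0.21 in EYFP (SD, n = 6) and 0.80, 0.60, 0.49, 0.44 and 0.73 in hTyr. These ranges overlap between 0.44 and 0.59. Blocking on the animal in limma also gave 0 of 8. Tcp1 and Cct4 then had the lowest p-values, each with an adjusted p = 0.71 from limma, and these 2 of 8 were under 0.05 unadjusted, as were 6.94% of all genes. With length and GC trends removed as well, 1 of 8 was (Tcp1), beside 5.12% of all genes.

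The genes of the related lists gave no call between hTyr and EYFP in IP either. Of the 84 genes measured in the 9 lists, 0 passed in limma. An unadjusted p under 0.05 was found for 4 of the 84, beside 6.19% of all genes. Medians lay between -0.06 for prefoldin and 0.07 for the proteasome. Noradrenergic markers were not called (0 of 10), with a median of 0.32 and 3 at an unadjusted p under 0.05, and markers of other neurons had a median of 0.04.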

How the data were processed

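The authors deposited 1 table of log2 values for 12596 genes in 22 libraries. The submitters' processing notes name STAR, featureCounts and mm10. The filter, the normalization and the strand setting are not given in the sources used here. Tested on the values, the deposited log2 values are log2 CPM with a pseudocount averaging 2 reads. Of them, 100% came out as whole reads (within 0.01 read), with 12654489 to 25100142 reads per library on the genes of the table. The library sizes behind the CPM ran from 1.27e+07 to 2.57e+07 and were not equal to these sums. Reads carry no molecular identifiers, so read numbers speak of counting error only.

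Genes were tested with limma 3.58.1 in R 4.3.3 (trended prior) on the log2 values of the groups compared, with Benjamini-Hochberg adjustment over all 12596 genes and a threshold of 0.05; the interaction used all 4 groups. A count test was not the main test since the unit is log2. The step was tested on simulated data, with reads drawn independently for each gene and library. The simulation had no pairing of libraries and no shifts common to genes, so it does not speak to these. Levels per length used 1 GENCODE M21 transcript a gene, and 98.3% of genes had a length and GC content. Figures were drawn with matplotlib 3.10.9 in Python 3.11.15.

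IP and input were paired by the animal number in the titles. Deviations from group means of the 2 libraries of an animal correlated with a mean r of 0.448 over genes (0.279 to 0.626, 11 animals). Each animal is 1 replicate, and no batch or date is labelled.

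The subunits, lists and markers were chosen with earlier results of these data known, so the lists' counts are descriptions. Named are all subunits, up to 4 genes a related list with the largest change past the threshold, and the 5 genes most like the subunit mean. Alternatives were no trend, quantile normalization, median centring, a pseudocount of 5 CPM, the 75% of genes with the highest mean level, voom on recovered reads, total reads as a covariate, a shared spread, a replicate block and leaving out each animal. Removing length and GC trends (loess, span 0.4), alone or with the replicate block, was chosen after seeing the data.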

Additional observations from a re-analysis of the deposited data

Results flagged for a closer look

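In hTyr input the library Pre_501 was far from the others for Cct4. It stood at 6.15 log2 CPM, while the other 4 libraries lay between 6.44 and 6.55, so its gap to the nearest took up a share of 0.733 of the group's whole range. Among 54 groups of values examined in this way (each subunit and their mean in each of the 4 groups, and the difference between IP and input in each treatment), 1 stood apart, where chance alone gives about 2.7. In that library 33.2% of all genes were the lowest of the group. Without that library the change of Cct4 between hTyr and EYFP in input was -0.07 (main value -0.14).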

How the results depend on the processing

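The count of subunits called was 8 of 8 for IP against input under all 16 alternatives in EYFP and all 15 in hTyr, with changes of 0.27 to 1.27 and 0.41 to 1.42, and 0 of 8 under all 20 for hTyr against EYFP in IP, all 20 in input and all 21 of the interaction. The replicate block, which follows the animals' pairing, also gave 8 and 8 for IP against input and 0 for the interaction. The median r in IP ran from 0.73 (without IP_505) to 0.92 when animals were left out, and was 0.81 as rho. In input it ran from 0.29 (without Pre_507) to 0.48. Some treatment changes near 0 changed sign: with median centring Cct2 in IP was 0.00437, and Cct6a and Cct7 in input 0.011 and 0.016; with total reads as a covariate Cct5 in IP was -0.016; with length and GC trends removed Cct5 in IP was -0.0066, Cct6a in input 0.0073 and Cct7 in the interaction 0.012, with and without the replicate block. When animals were left out, Cct2 in IP ran from -0.059 to 0.024, Cct3 from -0.034 to 0.10, Cct5 from -0.055 to 0.049, Cct7 from -0.093 to 0.00457 and Cct8 from -0.014 to 0.15. In input Cct6a ran from -0.072 to 0.012 and Cct7 from -0.080 to 0.042. In the interaction Cct5 ran from -0.036 to 0.085 and Cct7 from -0.093 to 0.059. The cause was not tested. Over all genes the calls went from 7 to between 0 (total reads as a covariate) and 14 (shared spread) for hTyr against EYFP in IP, from 1 to between 0 and 2 in input, and from 1 to between 0 and 5 (replicate block) in the interaction. Groups of 5 and 6 animals limit what could be called.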
